A study of Mus musculus with 8 samples.

Results

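The genes described here are the cytoplasmic ribosomal protein genes of mouse lung epithelial cells, together with Gm15772, a processed copy of Rpl26. Members were chosen by name: symbols beginning with Rpl or Rps and a digit, the genes Rplp0, Rplp1, Rplp2 and Rpsa, and Gm15772, without the kinases named Rps6k and without copies whose symbols carry -ps. A member also had to reach 1 CPM (the count scaled to a fixed library total) in at least 2 of the 8 libraries. Of 43432 genes in the table, 93 carried such a symbol and 82 were kept. The 82 comprised 48 large subunit symbols, 32 small subunit symbols, the binding protein gene Rps19bp1 and Gm15772. Besides Gm15772, Rps4l is annotated as a transcribed processed pseudogene, and the other members are protein-coding. All 82 passed the low-count filter of the test. The 11 symbols not kept were Rpl3l, Rps6, Rps29, Rpl39l, Rps3a3, Rpl10l, Rps3a2, Rpl37rt, Rps12l1, Rpl6l and Rpl24. Just outside the threshold, the second-highest library of Rps29 stood at 0.994 CPM and that of Rps6 at 0.927 CPM, and just inside it Rpl19 stood at 1.027 CPM and Rpl23a at 1.231 CPM.

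RNA came from EpCAM+CD45- lung cells of C57BL/6J mice aged 14 weeks. EpCAM is an epithelial surface protein and CD45 a leukocyte protein. The 3 wild-type libraries (WT 1 to WT 3) were made from that whole gate. The 3 heterozygous (C/+ 1 to C/+ 3) and 2 homozygous (C/C 1 and C/C 2) libraries came from ChiaRed+ cells within the same gate, ChiaRed being a reporter allele for Chia1, which encodes the acidic mammalian chitinase AMCase. Genotype and sort therefore differ together between wild-type and reporter libraries and cannot be told apart. The labels do not say whether libraries came from separate animals, so p-values measure the spread between these libraries, which may be technical. In bulk RNA, fewer cells of a type and less RNA per cell cannot be told apart.

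A ribosome is built from ribosomal RNA and about equal amounts of each of its proteins, which are divided between a large subunit that joins amino acids and a small subunit that reads the message. The messages of ribosomal proteins usually begin with a pyrimidine stretch (a TOP motif), through which LARP1 and the kinase complex mTORC1 control their translation. Because these messages are abundant and are copied back into the genome, most ribosomal protein genes have many intronless processed pseudogenes whose sequence is close or identical to the parent. Rpl26 encodes a large subunit protein near the exit of the peptide tunnel and is also known to bind p53 mRNA.

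Rpl26 (ENSMUSG00000060938) is a protein-coding gene on the plus strand of chr11:68901583-68906989 in GRCm38. Gm15772 (ENSMUSG00000062353) is annotated as a processed pseudogene on the plus strand of chr5:3236431-3236868. Gm15772 has the length of the Rpl26 coding sequence with its stop codon, 438 bases, and carries 436 of the same bases (99.54% identity). The 2 differences, counted from the first base of the start codon with the base of Rpl26 first, are C177T in codon 59 and T288C in codon 96. Both lie at the third base of their codon and keep the amino acid, so the open frame of Gm15772 spells the same 145 amino acids. In Rpl26 both differences lie in exon 3 of 4, at chr11 positions 68903187 and 68903298, and in Gm15772 they lie at chr5 positions 3236607 and 3236718. The stretches around them, coding positions 147 to 207 and 258 to 318, are shown because they are the only places in the coding sequence where a read can tell the genes apart. The differing base is in capitals.
Rpl26, around 177: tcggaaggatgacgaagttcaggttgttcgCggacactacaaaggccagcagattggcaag
Gm15772, around 177: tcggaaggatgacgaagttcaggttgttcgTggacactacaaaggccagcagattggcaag
Rpl26, around 288: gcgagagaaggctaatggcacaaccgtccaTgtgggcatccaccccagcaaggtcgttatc
Gm15772, around 288: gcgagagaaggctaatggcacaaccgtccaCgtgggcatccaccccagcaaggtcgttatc
Of the 389 windows of 50 bases in the Rpl26 coding sequence, 100 (25.7%) hold a difference from Gm15772 and 289 are shared with it. A total of 340 windows occur in some other gene, and 12 other genes share at least 1. Whether reads matching several genes were dropped or assigned is not given in the sources used here, so the division of counts between Rpl26 and Gm15772 is uncertain. Gene counts also cannot tell RNA of Gm15772 from RNA of an Rpl26 allele that has the bases of Gm15772 at these positions, so every value of the pair below is a value of counts assigned to each name.

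Library totals ran from 17057216 to 52319957 counts. Values below are CPM scaled by TMM factors (0.915 to 1.06), and fold changes are from edgeR's quasi-likelihood test over all 14906 tested genes with Benjamini-Hochberg adjustment. Chia1 stood at 267.5, 454.0 and 425.5 CPM in WT, at 303.5, 340.9 and 223.2 CPM in C/+ and at 1.45 and 0.365 CPM in C/C, in the order of the labels. Epcam lay between 157.3 and 201.7 CPM in the 8 libraries, and the leukocyte gene Ptprc, which encodes CD45, did not pass 1.80 CPM. The sums of 11 alveolar type 2 markers, the most abundant of the marker lists, ran from 191800 to 263600 CPM. In 3 libraries most members were low against their own group (WT 1, C/+ 3 and C/C 2), and results are also given without them.

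The Rpl26 count was almost absent from C/C libraries, and counts for Gm15772 stood in its place. Rpl26 stood at 37.2, 60.5 and 71.8 CPM in WT 1 to 3, at 47.8, 86.2 and 22.2 CPM in C/+ 1 to 3, and at 0.780 and 1.02 CPM in C/C 1 and 2. The C/C libraries lay below all others, while WT and C/+ overlapped. Gm15772 stood at 0.259, 0.0949 and 0.0744 CPM in WT, at 18.4, 0.233 and 14.1 CPM in C/+, and at 40.6 and 30.2 CPM in C/C. Here the C/C libraries lay above all others, and C/+ 2 fell inside the wild-type range while C/+ 1 and C/+ 3 lay far above it.

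Rpl26 fell by 5.86 ± 0.62 on the log2 scale (± SE) in C/C (0.898 ± 0.167 CPM, SD, n = 2) against C/+ (52.1 ± 32.2 CPM, SD, n = 3), with an edgeR adjusted p of 0.000986. Against WT (56.5 ± 17.6 CPM, SD, n = 3) it fell by 5.98 ± 0.63, with an edgeR adjusted p of 0.00173. C/+ and WT differed by -0.12 ± 0.39 on the log2 scale (edgeR adjusted p = 0.895). Gm15772 rose by 6.24 ± 1.19 on the log2 scale in C/+ (10.9 ± 9.50 CPM, SD, n = 3) against WT (0.143 ± 0.101 CPM, SD, n = 3), with an edgeR adjusted p of 0.0219, although 1 of the 3 C/+ libraries lay inside the wild-type range. In C/C (35.4 ± 7.35 CPM, SD, n = 2) it rose by 7.92 ± 1.21 against WT, with an edgeR adjusted p of 0.0146. The difference between C/C and C/+ was 1.69 ± 0.83 (edgeR adjusted p = 0.281), and without C/+ 2 its edgeR adjusted p was 0.0487. The edgeR calls of Gm15772 did not hold without every library. Its edgeR adjusted p for C/+ against WT was 0.0811 without WT 2, 0.0886 without WT 3 and 0.0707 without C/+ 1. For C/C against WT it was 0.0708 without WT 2. In the same order, 0.845%, 1.19%, 0.692% and 0.26% of all tested genes were called in those fits. Without C/C 1 or C/C 2, 1 C/C library was left, so these fits count neither for nor against its call. The rise of Gm15772 against WT was 7.69 and 8.12 in them. For Rpl26, the log2 fold change stayed below 0 in all 8 fits leaving out a library. It ran from -6.22 to -5.31 in C/C against C/+ and from -6.22 to -5.76 in C/C against WT.

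As a share of the counts of the pair, Gm15772 separated the libraries by level. Its share was 0.690% of 1449 counts in WT 1 (95% Wilson interval 0.375 to 1.27%), 0.157% of 1278 in WT 2 (0.0429 to 0.569%) and 0.104% of 3864 in WT 3 (0.0403 to 0.266%). In C/+ 1 it was 27.8% of 2027 counts (25.9 to 29.8%), and in C/+ 3 it was 38.8% of 618 (35.1 to 42.7%). In C/+ 2 it was 0.270% of 1853 counts (0.115 to 0.630%), inside the range of the wild-type libraries. In C/C 1 it was 98.1% of 1802 counts (97.4 to 98.7%), and in C/C 2 it was 96.7% of 1197 (95.6 to 97.6%). These intervals cover counting error only.

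**Figure D1:**
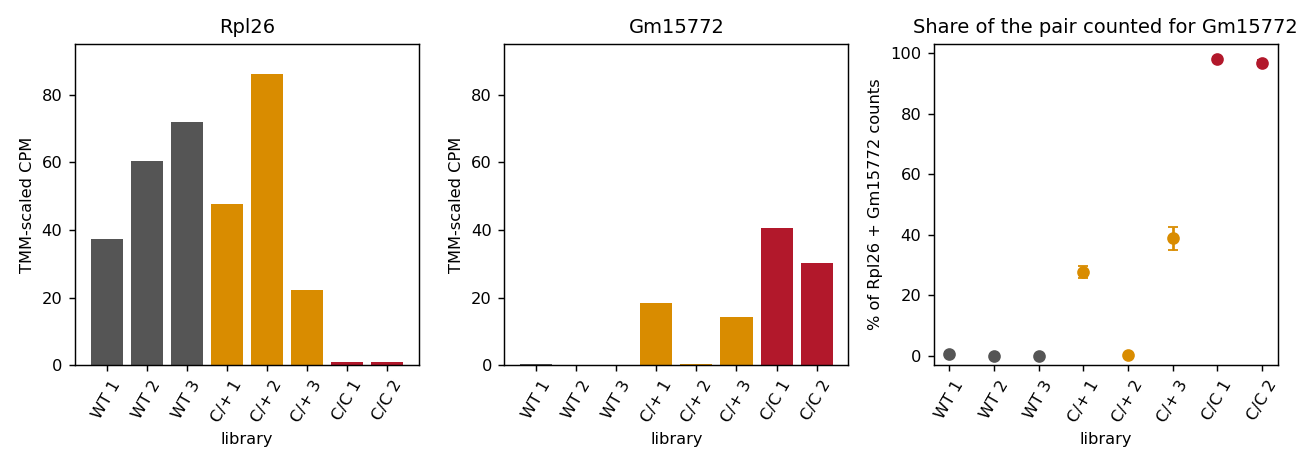
The left and middle panels plot TMM-scaled CPM of Rpl26 and Gm15772 in each of the 8 libraries as bars, and the right panel plots Gm15772 as a percentage of the counts of the pair, with 95% Wilson intervals. Rpl26 is at 0.780 and 1.02 CPM in C/C while Gm15772 is at 40.6 and 30.2, and the share in C/+ 2 (0.270%) lies with WT rather than with C/+ 1 and C/+ 3.

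The sum of Rpl26, Gm15772 and the -ps copies of Rpl26 moved much less. It was 37.5, 60.6 and 71.9 CPM in WT, 66.2, 86.5 and 36.5 CPM in C/+, and 41.5 and 31.3 CPM in C/C. The groups overlapped. With the counts summed, C/C differed from C/+ by -0.80 on the log2 scale (edgeR adjusted p = 0.212) and from WT by -0.64 (edgeR adjusted p = 0.298), and C/+ differed from WT by 0.16 (edgeR adjusted p = 0.808). Summing thus ended both calls of Rpl26.

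Genes near the pair were examined in the same fit. Within 2 Mb of Rpl26, 108 genes were tested, and 3.70% were called for C/+ against WT, 7.41% for C/C against C/+ and 5.56% for C/C against WT. Over all tested genes the called shares were 3.92%, 7.08% and 2.98%. Within 2 Mb of Gm15772, 15 genes were tested, and the only 2 called were Cyp51, a sterol synthesis enzyme that rose, and Cdk14, a cyclin-dependent kinase that fell, in C/C against C/+. Of 257 other copies with -ps symbols, 75 had no count in any library and 18 were tested. Neither edgeR nor DESeq2 called any of them in the 3 comparisons, and at an unadjusted edgeR p under 0.05 there were 2 higher in C/+ against WT and 1 lower in C/C against C/+.

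Among the other members, Rps24 and Rpl23 were the clearest changes, higher in all 5 reporter libraries than in all 3 wild-type libraries. In C/+ against WT edgeR called 4 members higher, Gm15772, Rps24, Rpl23 and Rpl14, and 0 lower. Gm15772 reached 1 CPM only in C/+ 1, C/+ 3, C/C 1 and C/C 2. It became a member through libraries where it was high, so its calls against WT say nothing of the members. Without it and Rpl26, 3 of 80 members were called higher and 0 lower. The share called over all tested genes was 3.42% higher and 0.503% lower. At an unadjusted p under 0.05, 20 of 82 members were higher and 0 lower, and 20.1% of all tested genes passed in either direction. By direction, 1837 of the 14906 tested genes were higher at that level and 1163 lower. DESeq2 called 9 members higher and 0 lower, where it called 8.69% of all genes it tested in either direction. Of the 14611 genes it tested, 916 were called higher and 354 lower. In C/C against WT, 4 members were called higher (1.62% of all tested genes), Gm15772, Rps24, Rpl23 and Rpl36al, and Rpl26 was the only one called lower (1.36% of all tested genes). Without Gm15772 and Rpl26, 3 of 80 members were called higher there and 0 lower. Between C/C and C/+, Rpl26 was the only member called lower (5.33% of all tested genes). None was called higher there by edgeR (1.75% of all tested genes), with 4 higher and 2 lower at an unadjusted p under 0.05 (20.9% of all tested genes in either direction) and 1 called higher by DESeq2. In C/C against WT 26 of 82 passed an unadjusted p of 0.05 (22.1% of all tested genes). Of these members 25 were higher and 1 lower, where 1509 of the 14906 tested genes were higher and 1790 lower. The comparisons share groups, C/+ against WT and C/C against WT having the same controls.

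Rps24 encodes a small subunit protein needed for maturation of the small subunit's RNA and mutated in Diamond-Blackfan anaemia. It stood at 74.0, 82.0 and 90.6 CPM in WT, at 142.1, 140.3 and 143.9 CPM in C/+, and at 124.0 and 135.4 CPM in C/C. It rose by 0.79 ± 0.10 on the log2 scale in C/+ (edgeR adjusted p = 0.00906) and by 0.66 ± 0.11 in C/C (edgeR adjusted p = 0.0170), both against WT. All C/+ libraries also lay above both C/C libraries, a difference of -0.13 on the log2 scale that did not pass the test.

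Rpl23, a large subunit protein that can bind MDM2, stood at 60.9, 62.2 and 59.8 CPM in WT, at 85.0, 99.5 and 108.0 CPM in C/+, and at 92.3 and 98.6 CPM in C/C. The lowest reporter library was above the highest wild-type library by a wide margin. It rose by 0.68 ± 0.10 in C/+ against WT (edgeR adjusted p = 0.0116) and by 0.65 ± 0.11 in C/C against WT (edgeR adjusted p = 0.0203). The C/+ calls of Rps24 and Rpl23 were kept in 8 of 8 fits leaving out a library. Those in C/C against WT were kept in 5 of 8, and both were lost without WT 2, without C/C 1 and without C/C 2.

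Rpl14, another large subunit protein, stood at 58.0, 74.0 and 72.4 CPM in WT, at 105.2, 102.5 and 86.0 CPM in C/+, and at 100.8 and 83.5 CPM in C/C. It rose by 0.52 ± 0.13 in C/+ against WT (edgeR adjusted p = 0.0475), and the call was kept in 1 of 8 fits leaving out a library, that without C/+ 3, with adjusted p between 0.0275 and 0.153. Rpl36al, a close paralog of Rpl36a, stood at 29.1, 34.9 and 31.1 CPM in WT, at 39.9, 39.2 and 39.5 CPM in C/+, and at 44.7 and 49.9 CPM in C/C. The 3 groups did not overlap for this gene. It rose by 0.58 ± 0.11 in C/C against WT (edgeR adjusted p = 0.0324), a call kept in 3 of 8 such fits, with adjusted p between 0.0262 and 0.250.

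**Figure D2:**
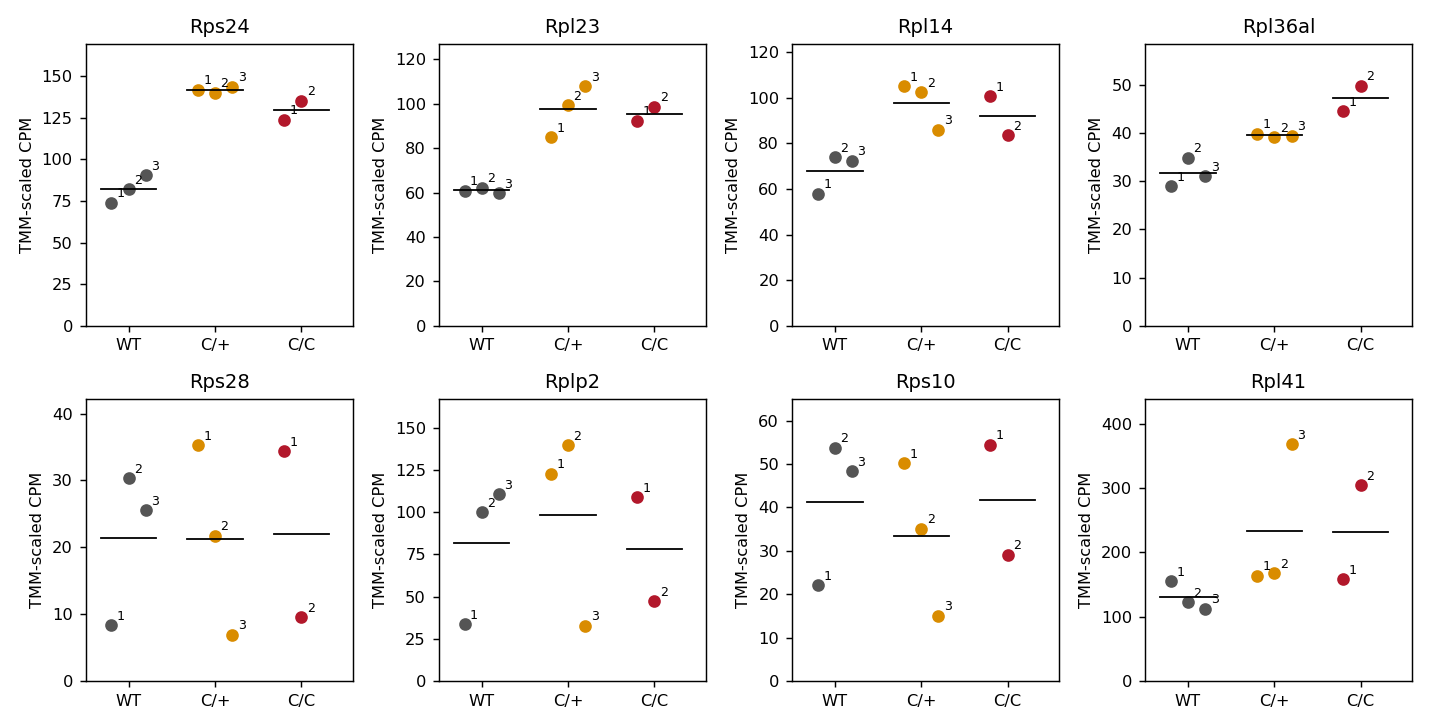
TMM-scaled CPM of 8 members in each library, with replicate numbers beside the points and a line at each group mean. In the upper row (Rps24, Rpl23, Rpl14, Rpl36al) every reporter library lies above every WT library, and in the lower row (Rps28, Rplp2, Rps10, Rpl41) WT 1, C/+ 3 and C/C 2 stand apart from the other libraries of their groups.

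The members as a whole leaned upward in reporter cells against WT by a small amount. In C/+ against WT, 72 of 82 log2 fold changes were above 0 (50.6% of all tested genes), with a median of 0.25 (0.01 over all tested genes). For C/C against WT, 70 of 82 were above 0 (46.7% of all tested genes), with a median of 0.30 (-0.03 over all tested genes). For C/C against C/+, 43 of 82 were above 0 (48.7% of all tested genes), with a median of 0.02 (-0.01 over all tested genes). The subunits had near values: in C/+ against WT the median was 0.23 for 48 large subunit genes and 0.30 for 32 small subunit genes, and in C/C against WT 0.30 and 0.28.

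Groups did not overlap for 14 members higher in C/+ against WT, where 14.1% of all tested genes were higher in that way. For C/C against WT the counts were 37 higher and 1 lower (20.8% and 22.6% of all tested genes). For C/C against C/+ they were 8 higher and 3 lower (18.1% and 20.2% of all tested genes). All 5 reporter libraries lay above all 3 WT libraries for 14 members (17.1%), against 5.59% of all tested genes. Besides Rps24, Rpl23, Rpl14 and Rpl36al these were Rpl35a, Rpl36, Rpl4, Rpl41, Rplp0, Rplp1, Rps15, Rps19bp1, Rps26 and Rps9. Among them Rpl4 had tight groups, at 701.7, 693.8 and 706.0 CPM in WT, 801.9, 820.8 and 824.2 CPM in C/+, and 860.7 and 946.2 CPM in C/C. Its difference of 0.22 ± 0.09 in C/+ and of 0.37 ± 0.10 in C/C, both against WT, did not pass the test (edgeR adjusted p = 0.205 and 0.0727).

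**Figure D3:**
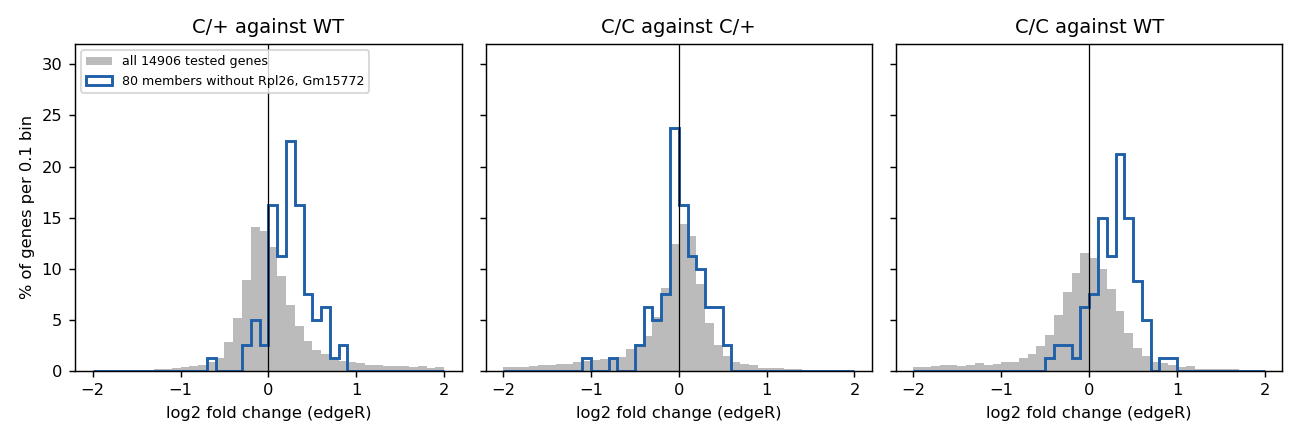
Distribution of log2 fold changes in bins of 0.1 for the 80 members without Rpl26 and Gm15772 (blue line) and for all 14906 tested genes (grey), in the 3 comparisons. The members lie to the right of the other genes against WT (medians 0.25 in C/+ and 0.30 in C/C) and over them in C/C against C/+ (median 0.02).

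The summed level of the members showed how far single libraries carried this lean. Members took 0.638%, 0.788% and 0.772% of all counts in WT (mean 0.733% ± 0.0824, SD, n = 3). The share was 0.959%, 0.942% and 0.723% for C/+ (mean 0.875% ± 0.131, SD, n = 3) and 0.869% and 0.794% for C/C (mean 0.831% ± 0.0531, SD, n = 2). C/+ 3 lay inside the wild-type range. Without WT 1 the median log2 fold change was 0.12 in C/+ and 0.16 in C/C against WT, without C/+ 1 the former was 0.16, without C/+ 3 it was 0.38, and without C/C 1 the latter was 0.15. Between C/C and C/+ the median changed sign with the library left out: it was -0.09 without C/+ 3 (28 of 82 above 0), -0.06 without C/C 1 (36 of 82), 0.12 without C/+ 1 and 0.14 without C/C 2 (60 of 82).

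WT 1, C/+ 3 and C/C 2 resembled each other within the members more than over other genes. In WT 1, 66 of 82 members were below the mean of their group, in C/+ 3 65, and in C/C 2 62, where 47.1%, 50.8% and 51.1% of all tested genes were. The median deviation of members was -0.26, -0.28 and -0.12 on the log2 scale. Deviations in WT 1 and C/+ 3 correlated at r = 0.73 over the 82 members, those in WT 1 and C/C 2 at 0.62, and those in C/+ 3 and C/C 2 at 0.47, against 0.16, 0.09 and 0.12 over all tested genes. These are descriptions across genes of the same libraries, and with 2 C/C libraries the deviations of C/C 1 mirror those of C/C 2. Within each group the same library had the highest share of counts from mitochondrially encoded genes, 3.31% for WT 1, 6.40% for C/+ 3 and 6.67% for C/C 2, against 2.90 to 2.92% in the other WT, 3.93 to 4.26% in the other C/+ and 4.92% in C/C 1. Their part in the result was not tested.

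**Figure D4:**
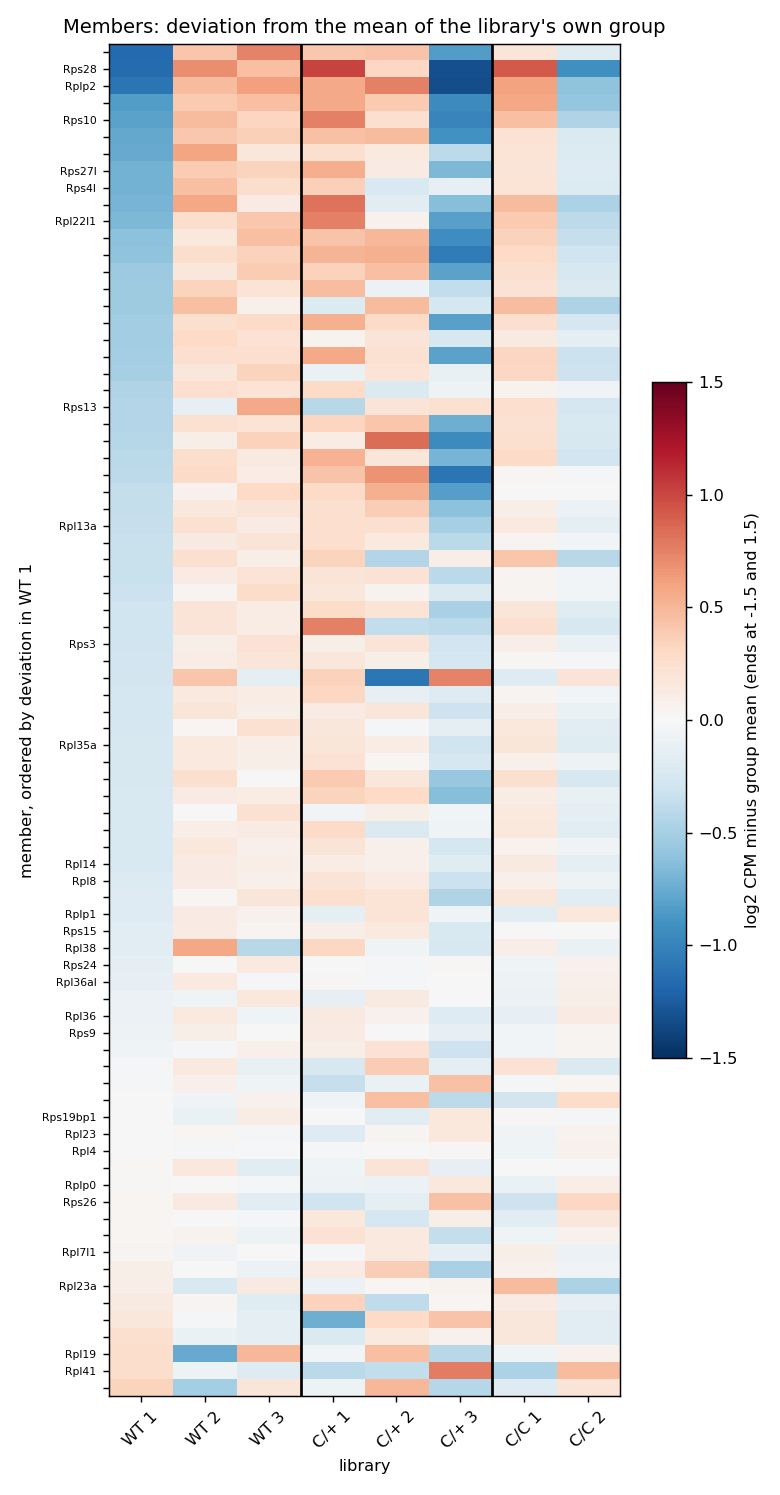
Heat map of the deviation of each member (rows, ordered by WT 1, without Rpl26 and Gm15772, labelled where the text names the gene) from the mean log2 CPM of the library's own group (columns, 8 libraries). Blue columns in WT 1, C/+ 3 and C/C 2 show members below their group mean (66, 65 and 62 of 82 with Rpl26 and Gm15772 counted), and Rpl41 near the bottom goes the other way.

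Single members show the size of this spread. Rps28, a small subunit protein, stood at 8.35, 30.4 and 25.6 CPM in WT, 35.3, 21.7 and 6.94 CPM in C/+, and 34.4 and 9.57 CPM in C/C. Rplp2, a protein of the stalk that recruits elongation factors, stood at 33.7, 100.2 and 110.7 CPM in WT, 122.9, 139.9 and 32.8 CPM in C/+, and 108.9 and 47.3 CPM in C/C. Rps10, a small subunit protein near the messenger entry, stood at 22.0, 53.7 and 48.3 CPM in WT, 50.2, 35.0 and 15.0 CPM in C/+, and 54.5 and 29.1 CPM in C/C. In each of these genes WT 1, C/+ 3 and C/C 2 were the lowest of their groups. Rpl41, the smallest large subunit protein, went the other way, at 155.1, 122.2 and 112.6 CPM in WT, 163.8, 168.1 and 368.6 CPM in C/+, and 158.4 and 304.4 CPM in C/C. These genes were chosen after their values were seen. Over 81 members, Spearman's rho of the deviation with coding length was 0.22 for WT 1, 0.21 for C/+ 3 and 0.12 for C/C 2. Without the 3 libraries, edgeR called 15 members in C/+ against WT in place of 4, where 6.57% of all tested genes were called. The 3 were set apart because the members themselves were low in them, so this count is no test of the members. C/C was then left with 1 library. The median log2 fold change of the members was -0.02 in C/C against C/+ and 0.29 in C/C against WT in that fit.

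Levels differed widely between members, although ribosomes hold their proteins in about equal number. Among the highest by mean CPM over the 8 libraries were Rpl4 (794.4), Rps3 (687.7), Rpl8 (565.0), Rps9 (408.1) and Rpl13a (401.9), and the 4 lowest were Rpl19 (0.931), Rps13 (1.05), Rpl38 (1.08) and Rpl23a (1.10). Per kilobase of coding sequence Rpl41 was first at 2489 mean CPM, followed by Rplp1 at 1022 and Rps3 at 939, and Rpl19 was last at 1.57. Rpl41 has 78 coding bases, far shorter than its message, which raises its value on this scale.

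The counted level was higher in members with more coding sequence that occurs nowhere else. For 81 members, without Gm15772, the share of 50-base coding windows absent from all other annotated genes was computed, over the whole transcript for the pseudogene Rps4l. The 57 members with under 20% such windows had a median of 40.6 CPM per kilobase (1.58 to 2490), and 17 were under 10. The 8 members with 20 to 40% had a median of 279, the 5 with 40 to 60% a median of 698, and the 11 with 60% or more a median of 484. Only 1 of those 11 was under 10, Rps4l at 9.32 per kilobase of its transcript. Spearman's rho between the level and that share was 0.76 across these genes, and with the number of pseudogenes sharing a window it was -0.46. All points share the same 8 libraries and annotation. The 4 members with the lowest mean CPM had between 0 and 0.737% such windows, while Rps3 had 91.9%. The share was 22.4% for Rps24, 13.4% for Rpl23, 22.1% for Rpl14 and 18.4% for Rpl36al. Their values are uncertain, since the rule for reads matching several genes is not given. The part of shared sequence in the counted levels was not tested. Adding 252 copies, Gm15772 among them, to 55 parents left 2 members called in C/+ against WT, 0 in C/C against C/+ and 3 in C/C against WT. Of all tested genes, 3.93%, 7.09% and 2.97% were called in that fit. Gm15772 was then no longer a separate member, and Rpl26 was no longer called. Rpl14 in C/+ against WT had an edgeR adjusted p of 0.0541, while Rps24 and Rpl23 stayed called there.

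**Figure D5:**
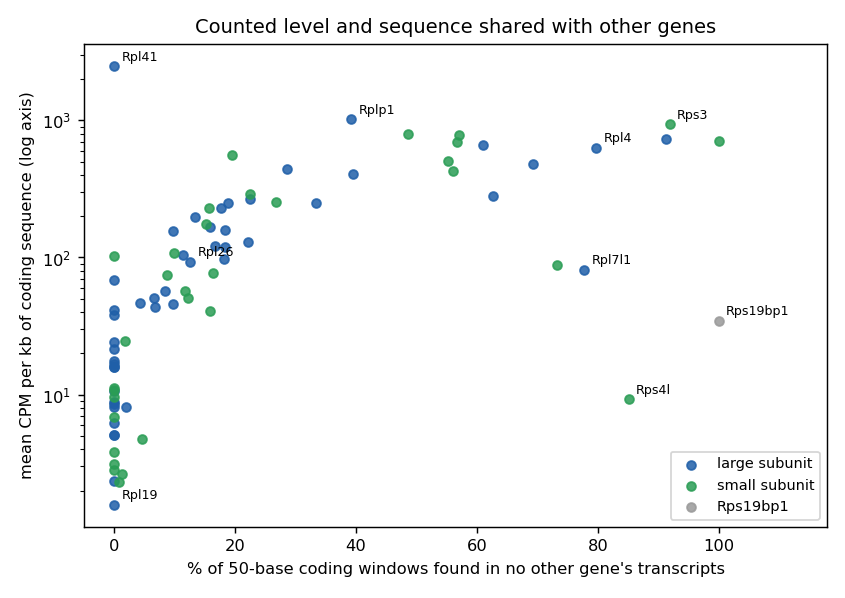
Mean CPM per kilobase of coding sequence (log axis) of 81 members against the percentage of 50-base coding windows found in no other gene, coloured by subunit, with the whole transcript used for Rps4l. Members with under 20% unique windows spread from 1.58 to 2490, and those with 60% or more lie between 9.32 and 939.

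Among the members named as paralogs, Rpl7l1, a nucleolar relative of Rpl7, had the smallest coefficient of variation of all members, 7.65%, between 55.4 and 67.2 CPM. Rpl22l1, a paralog of the large subunit gene Rpl22, was lowest in C/+ 3 (18.8 CPM) and highest in C/+ 1 (56.1 CPM). Rps27l, a p53-responsive paralog of Rps27, was lowest in WT 1 (14.1 CPM) and highest in C/+ 1 (42.0 CPM). The pseudogene Rps4l, related to Rps4x, ran from 4.37 to 11.9 CPM. None of these 4 passed the edgeR test or an unadjusted p of 0.05 in any comparison, and their groups overlapped except for Rpl7l1 in C/C against WT.

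Promoter sequence from RefSeq (GRCm38.p6), 250 bases before to 50 after each start, was matched for 61 of 82 members. The motif CCGGAAG, the core of ETS and GABP sites, was found on either strand in 24 (39.3%) of them and in 9.93% of 27025 genes. The GC box GGGCGG, on either strand, was in 40 (65.6%) against 38.2%. CTTTCC, a pyrimidine run, was on the gene's strand from 20 bases before to 30 after the start in 12 (19.7%) against 2.83%. The stretches from 100 bases before to 20 after the start of Rpl26 and of the other 4 members called in C/+ or C/C against WT, Gm15772 aside, are shown. Matches of CCGGAAG and GGGCGG, on either strand, are in capitals, except a match that overlaps an earlier one, as in Rpl36al.
Rpl26, chr11:68901466-68901585, plus strand: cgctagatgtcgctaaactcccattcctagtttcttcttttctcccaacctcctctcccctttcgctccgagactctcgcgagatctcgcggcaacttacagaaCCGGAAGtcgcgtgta
Rps24, chr14:24490578-24490697, plus strand: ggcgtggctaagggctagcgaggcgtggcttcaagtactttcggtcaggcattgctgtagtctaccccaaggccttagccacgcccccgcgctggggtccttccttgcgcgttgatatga
Rpl23, chr11:97782420-97782539, minus strand: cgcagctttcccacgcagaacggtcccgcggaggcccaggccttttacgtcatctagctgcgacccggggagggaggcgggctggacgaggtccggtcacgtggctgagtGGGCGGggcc
Rpl14, chr9:120571417-120571536, plus strand: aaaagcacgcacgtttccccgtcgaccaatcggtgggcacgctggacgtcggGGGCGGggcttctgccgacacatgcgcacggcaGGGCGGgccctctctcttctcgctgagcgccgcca
Rpl36al, chr12:69184048-69184167, minus strand: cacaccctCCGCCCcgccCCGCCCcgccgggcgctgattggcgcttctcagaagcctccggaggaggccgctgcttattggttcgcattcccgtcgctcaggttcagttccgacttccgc
Rpl26 holds CCGGAAG just after its start. GGGCGG stands before the start in Rpl14 and Rpl36al and just after it in Rpl23. Rps24 holds neither motif in this stretch, nor in the same stretch around its other listed start. A match describes letters and not a bound site.

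Among other genes of ribosome production and translation, biogenesis factors leaned upward in C/C against both other groups. Of 65 tested ribosome biogenesis genes, edgeR called Ddx21, a nucleolar helicase, lower in C/+ against WT (27.1 ± 0.976 CPM, SD, n = 3, against 39.9 ± 6.11, SD, n = 3). Of all tested genes 0.503% were called lower there. In C/C against C/+ it called Bop1 and Bysl, processing factors of the large and the small subunit, higher by 0.69 and 0.64 on the log2 scale, with 57 of 65 above 0 and a median of 0.25. Of all tested genes 1.75% were called higher and 48.7% were above 0 in that comparison. Against WT, 57 of 65 in C/C were also above 0 and edgeR called none, with 19 higher at an unadjusted p under 0.05 and 4 called higher by DESeq2. Of the 14906 tested genes, 46.7% were above 0 and 1509 were higher at that unadjusted level, and DESeq2 called 674 genes higher. The most abundant of the list, Ncl, which encodes nucleolin, lay between 152.5 and 205.9 CPM.

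Of 28 initiation factor genes, Eif4h, a helper of the helicase eIF4A, was the only one called, higher in C/C (651.3 ± 30.1 CPM, SD, n = 2) than in C/+ (461.9 ± 51.2 CPM, SD, n = 3). Of 20 elongation and other TOP messenger genes, Eef1d was the only one called, higher by 0.46 in C/C than in WT. Eef2, the translocation factor and most abundant of them, lay between 1480 and 1893 CPM. Fau and Rack1, ribosomal partners outside the Rpl and Rps names, and the 15 RNA polymerase I genes had no call by edgeR or DESeq2. Of those 15, 1 was higher at an unadjusted p under 0.05 in each comparison, and neither Fau nor Rack1 passed that level. Rack1, a scaffold on the small subunit, lay between 519.6 and 744.5 CPM, and Ubtf, an RNA polymerase I factor, between 90.7 and 117.9 CPM. Of 12 snoRNA host genes, Epb41l4aos was the only one called, higher by 0.89 in C/C than in WT, and the most abundant, Gas5, lay between 85.2 and 139.0 CPM. Beside these single calls, 1.75% of all tested genes were called higher in C/C against C/+ and 1.62% in C/C against WT.

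Of 25 genes of mTORC1 and LARP1 control, Sesn2, a stress-induced inhibitor of mTORC1, was the only one called. It stood at 32.2, 27.9 and 29.8 CPM in WT, 25.7, 32.4 and 30.2 CPM in C/+, and 54.8 and 55.7 CPM in C/C, higher in C/C by 0.91 against C/+ and by 0.88 against WT. Of all tested genes, 1.75% and 1.62% were called higher in these comparisons. Of 11 tested genes of the p53 axis, which free ribosomal proteins are known to touch through MDM2, Sesn2 and Cdkn1a, the cell cycle inhibitor p21, were called. Cdkn1a stood at 48.6, 54.3 and 52.6 CPM in WT, 72.7, 65.7 and 54.2 CPM in C/+, and 116.0 and 114.9 CPM in C/C, higher in C/C by 0.84 against C/+ and by 1.16 against WT. Both C/C libraries lay above all others for both genes. The 16 immediate early and dissociation stress genes moved with them, with summed levels of 3313 to 9440 CPM in WT, 4217 to 7015 CPM in C/+, and 17570 and 13270 CPM in C/C. Their part in the result was not tested.

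Mitochondrial ribosomal proteins, which build a separate ribosome, leaned the same way as the cytoplasmic members against WT. Of 76 tested, 67 were above 0 in C/+ against WT with a median of 0.21, and edgeR called Mrpl13 (0.61 ± 0.12) and Mrps21 (0.53 ± 0.11) higher. Over all tested genes, 50.6% were above 0 and 3.42% were called higher. Of the same 76, 74 in C/C against WT were above 0 with a median of 0.32, and Mrps12, Mrpl42 and Mrpl51 were called higher. Over all tested genes, 46.7% were above 0 and 1.62% were called higher there. Mrps12 was also called higher in C/C against C/+, by 0.46 (1.75% of all tested genes).

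Markers of other cells also differed between the groups. The summed level of 12 endothelial markers was 76.6 to 309.6 CPM in WT, 611.0 to 1027 CPM in C/+, and 68.6 and 59.7 CPM in C/C, with 12 of 12 called higher in C/+ against WT and 12 of 12 lower in C/C against C/+. That of 8 airway secretory markers was 431.9 to 1093 CPM in WT, 5156 to 9720 CPM in C/+, and 466.6 and 692.2 CPM in C/C, with 8 of 8 called in the same directions. For C/C against WT, where members also leaned upward, 1 of the 12 endothelial and 1 of the 8 airway markers were called lower, with medians of -1.85 and -1.33 on the log2 scale. The 7 cell cycle genes summed to 8.35 to 16.3 CPM in WT, 32.2 to 82.7 CPM in C/+, and 30.3 and 25.6 CPM in C/C, and 6 of 7 were called higher in C/+ against WT. Their part in the members' results was not tested. Counts of Xist and Y-linked genes put WT 1, C/+ 2, C/+ 3, C/C 1 and C/C 2 as female and WT 2, WT 3 and C/+ 1 as male, so that both C/C libraries were female. With sex in the edgeR fit, 15 members were called in C/+ against WT and 19 in C/C against WT, of which 18 were higher, where 11.4% and 9.04% of all tested genes were called in those fits. The median log2 fold change of the members was then 0.37 in C/+ and 0.53 in C/C against WT, in place of 0.25 and 0.30, and 0.14 in C/C against C/+. WT 1 was the only female WT library, and 66 of 82 members were below their group mean in it. Within WT, sex and the low members of WT 1 cannot be told apart, so the larger values of this fit lean on that library.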

How the data were processed

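Counts per gene were deposited by the authors as a single table of 43432 Ensembl mouse genes. Poly(A)-selected stranded libraries were made from column-purified total RNA, per the labels' protocols. The submitters' processing notes name STAR 2.4.2a, DESeq2 and GRCh38 with no roles, and GRCh38 is a human build while the identifiers are mouse. The counting tool and its rule for reads matching several genes are, like the annotation, not given in the sources used here. Symbols, positions and coding sequences came from GENCODE M21 (GRCm38), which matched 42462 identifiers and not 970.

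Deposited counts were fitted in R 4.3.3 with edgeR 4.0.16 (quasi-likelihood, filterByExpr, TMM, all 8 libraries in one model of 3 groups, Benjamini-Hochberg threshold 0.05). The SE is the absolute log2 fold change divided by the square root of the F value. The fit was tested on simulated data. DESeq2 1.42.0 was an alternative, beside other filters, scalings, copies summed with their parents, sex as a covariate, a replicate block and each library left out. The set without WT 1, C/+ 3 and C/C 2 was chosen after seeing the data. The members and lists were chosen with earlier results of these data known. Replicates of a group differed beyond sampling noise (chi-square per gene 11.8 to 71.4).

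The text names Rpl26 and Gm15772, up to 12 called members per comparison and direction, the 6 highest and 4 lowest members by mean CPM, the paralogous members kept, and up to 3 called genes of each other list (the most abundant where none was called). Genes shown for non-overlap or for spread between libraries were chosen after their values were seen. A few results under this rule are not reported here.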

Additional observations from a re-analysis of the deposited data

How the results depend on the processing

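The number of members called in C/+ against WT was 4. It was 9 by DESeq2's Wald test, 11 without a low-count filter, 2 with the compared groups alone, 15 with sex as a covariate, 2 with copies summed, 15 without WT 1, C/+ 3 and C/C 2, and 2 to 9 leaving out each library. The share of all tested genes called moved too, from 3.92% to 8.69%, 5.72%, 2.55%, 11.4%, 3.93% and 6.57% in that order, and to between 0.692 and 4.86% leaving out each library. In C/C against C/+ it was 1, and 2, 4, 2, 3 and 0 in the same order up to copies summed. Of all tested genes, 10.8%, 7.1%, 7.83%, 8.05% and 7.09% were called there. It was 1 to 2 leaving out each WT or C/+ library, where 4.87 to 8.94% of all tested genes were called. In C/C against WT it was 5, and 14 by DESeq2, 17 without the filter, 19 with sex and 3 with copies summed (9.87%, 6.41%, 9.04% and 2.97% of all tested genes). Leaving out each WT or C/+ library it was 1 to 8, with 1 reached without WT 2 and 8 without C/+ 3. In those 2 fits 0.26% and 5.22% of all tested genes were called. Without C/C 1 or C/C 2, 1 C/C library was left, and the median log2 fold change of the members was 0.150 and 0.395. In C/+ against WT 2 was reached without WT 2, WT 3 or C/+ 1, and 9 without C/+ 3.

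The log2 difference of Rpl26 between C/+ and WT (-0.12) changed sign with sex as a covariate (0.036), with copies summed (0.157), without WT 3 (0.099), without C/+ 3 (0.242) and without WT 1, C/+ 3 and C/C 2 (0.007). That of Rpl23 between C/C and C/+ (-0.03) became 0.006 with the replicate block, 0.051 without C/+ 3, 0.023 without C/C 1 and 0.005 without the 3 libraries, and that of Rpl14 (-0.09) became 0.045 without C/C 2. Leaving out each library, the ranges were -0.689 to 0.242 for Rpl26, -0.120 to 0.051 for Rpl23 and -0.225 to 0.045 for Rpl14. None of these passed the test under any of these settings. The cause was not tested.

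The labels do not say whether replicate numbers pair libraries. Over all tested genes, deviations of same-numbered libraries of WT and C/+ correlated at -0.21, -0.05 and -0.06. Those of C/+ and C/C correlated at 0.09 and -0.04, and those of WT and C/C at -0.09 and -0.03. Not every library correlated best with its own number. With 2 or 3 libraries per group, these values cannot show whether the numbers pair libraries. With the replicate number as a block, 3 members were called in C/+ against WT, 1 in C/C against C/+ and 4 in C/C against WT. Of all tested genes, 3.07%, 5.36% and 1.18% were called in that fit. The depth of WT 2, C/+ 2 and C/+ 3 limits the lowest members, such as Rpl19 at 8 to 53 counts.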
